A study of Homo sapiens with 13 samples.

Results

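The H3K4me1 landscape described here is the set of genomic regions that carried a CUT&RUN peak of monomethylated lysine 4 of histone H3 in both replicates. Peaks of the 2 H3K4me1 libraries on chromosomes 1 to 22 and X were merged where they overlapped by at least 1 bp, and a merged region was kept if it held a peak from each library. That left 23540 H3K4me1 regions, of 66010 regions and sites obtained in the same way for the 6 targets of the series. Coding genes were the 19974 protein-coding genes of the RefSeq annotation of GRCh38, and a region was assigned to a gene when it overlapped the gene's span extended by 50 kb on each side. All libraries came from PANC1, an established cell line grown from a human carcinoma of the pancreatic duct, here in a stable line that expresses BRG1. The labels mark every library BRG oe, which is taken here as BRG1 overexpression, so the cells compared with each other all carried it. BRG1, encoded by SMARCA4, drives chromatin remodelling by the BAF and PBAF complexes as their ATPase. In CUT&RUN a nuclease is brought to the chromatin by an antibody and releases the DNA around it, and the series profiled H3K4me1, H3K4me3, H3K27ac, BRG1, NRF2 and SMARCC1 with 2 replicates each. The labels do not say whether the replicates were separate cultures, and PANC1 without added BRG1 was not analysed here.

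H3K4me1 is deposited mainly by the methyltransferases KMT2C and KMT2D and is the mark most often used to locate enhancers. It also lines the flanks of active promoters, whose centres carry trimethylation of the same lysine, H3K4me3. H3K27ac, laid down by EP300 and CREBBP, is found at active promoters and at enhancers in use, so that an H3K4me1 region with H3K27ac is conventionally read as an active enhancer and one without it as primed, poised or inactive.

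The H3K4me1 lists were long and made of weak peaks. Replicate 1 held 37283 peaks and replicate 2 held 34234. Of these, 66.1% and 73.0% were met by a peak of the other replicate. The median fold enrichment, a ratio given for each peak by the authors' peak caller, was 3.39 in replicate 1 and 3.40 in replicate 2. Peaks that the other replicate met had a median fold of 3.60 in replicate 1 and 3.54 in replicate 2, against 3.14 and 3.15 for peaks it did not meet. A −log10 q of at least 1.3 was reached by 8163 and 6471 peaks, and a −log10 q of at least 5 by 239 and 80. In the H3K27ac libraries the median fold was 3.62 in both, and 2553 and 2590 peaks reached the threshold of 5. In the H3K4me3 libraries the median folds were 8.72 and 9.65, and 13298 and 12891 peaks reached it. Most H3K4me1 peaks were thus below the lower of these thresholds, and 3939 H3K4me1 regions were left when only peaks with −log10 q of at least 1.3 were merged. Read numbers are not part of these lists and library depth is therefore unknown. Intervals given with shares cover counting error only.

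H3K4me1 was scarce at gene starts that carried H3K4me3. The few starts with H3K4me1 alone had fewer CpG dinucleotides than starts with H3K4me3 alone. Starts with neither mark were as poor in CpG, so this was not particular to H3K4me1. RefSeq windows from 250 bases before to 50 bases after a start were matched for 15812 of the 19974 coding genes, giving 22132 windows. H3K4me1 without H3K4me3 was found at 348 windows of 300 genes, both marks at 45, H3K4me3 without H3K4me1 at 12036 and neither at 9703. The 250 bases before 4 H3K4me1-only starts and 2 H3K4me3-only starts are printed here to let the CpG content be seen. They were taken from the starts with the highest folds of their mark, for H3K4me1 among windows that lay whole within a region. Each sequence is RefSeq GRCh38.p14, written 5′ to 3′ in the direction of the gene, and capitals mark CpG dinucleotides. Those of SCHIP1, SYNE3, AVPR2 and CALHM3 carried H3K4me1, and those of ZNF264 and UBL5 carried H3K4me3.

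SCHIP1, chr3:159852904-159853153, plus strand: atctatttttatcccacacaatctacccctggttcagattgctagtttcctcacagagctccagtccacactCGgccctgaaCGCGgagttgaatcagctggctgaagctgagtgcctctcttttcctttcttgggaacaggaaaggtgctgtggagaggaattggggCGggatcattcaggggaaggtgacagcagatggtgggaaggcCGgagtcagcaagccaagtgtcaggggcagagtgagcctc
SYNE3, chr14:95500541-95500790, minus strand: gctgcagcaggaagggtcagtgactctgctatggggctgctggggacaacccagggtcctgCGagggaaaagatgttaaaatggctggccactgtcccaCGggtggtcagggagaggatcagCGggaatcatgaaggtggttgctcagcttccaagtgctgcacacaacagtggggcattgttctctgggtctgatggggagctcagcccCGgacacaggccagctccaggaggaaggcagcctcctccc
AVPR2, chrX:153904464-153904713, plus strand: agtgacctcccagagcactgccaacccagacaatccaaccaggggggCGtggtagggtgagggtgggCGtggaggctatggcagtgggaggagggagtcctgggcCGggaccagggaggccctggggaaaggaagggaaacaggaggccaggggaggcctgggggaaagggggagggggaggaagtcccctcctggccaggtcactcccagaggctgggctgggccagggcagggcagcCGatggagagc
CALHM3, chr10:103479241-103479490, minus strand: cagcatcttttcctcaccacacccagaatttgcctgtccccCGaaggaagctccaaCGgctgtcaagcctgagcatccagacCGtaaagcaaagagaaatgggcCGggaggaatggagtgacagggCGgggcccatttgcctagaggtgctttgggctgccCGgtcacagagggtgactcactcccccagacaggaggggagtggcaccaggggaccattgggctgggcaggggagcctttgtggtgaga
ZNF264, chr19:57191250-57191499, plus strand: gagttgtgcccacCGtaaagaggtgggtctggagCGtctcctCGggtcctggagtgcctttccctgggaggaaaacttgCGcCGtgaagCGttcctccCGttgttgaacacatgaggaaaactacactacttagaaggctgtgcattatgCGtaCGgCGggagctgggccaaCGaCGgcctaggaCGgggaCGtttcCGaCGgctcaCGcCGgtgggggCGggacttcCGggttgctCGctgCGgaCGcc
UBL5, chr19:9827668-9827917, plus strand: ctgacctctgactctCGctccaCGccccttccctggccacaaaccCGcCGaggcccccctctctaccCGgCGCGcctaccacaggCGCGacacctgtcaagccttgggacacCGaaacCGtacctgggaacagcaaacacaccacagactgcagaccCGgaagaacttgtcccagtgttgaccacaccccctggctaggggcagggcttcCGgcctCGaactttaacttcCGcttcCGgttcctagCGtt

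The 4 H3K4me1 starts held between 4 and 6 CpG dinucleotides in these 250 bases, and the 2 H3K4me3 starts held 23 and 17. SCHIP1, a gene for a cytoskeleton-associated protein, had an H3K4me1 fold of 7.78 in replicate 1 and 6.60 in replicate 2. SYNE3, which encodes the nuclear envelope protein nesprin-3, had folds of 6.83 and 7.04. AVPR2, the vasopressin V2 receptor gene, had folds of 5.77 and 6.40, and CALHM3, a channel gene, had 6.41 and 5.67. All 4 of these windows also met an H3K27ac region. ZNF264, a zinc finger gene, had H3K4me3 folds of 64.1 and 63.9, and UBL5, a ubiquitin-like protein gene, had 63.2 and 62.8.

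Over whole classes, the median number of CpG dinucleotides per window was 7 for H3K4me1 only, 15 for both marks, 28 for H3K4me3 only and 6 for neither, against 21 for all windows. Median GC content was 58.3% for H3K4me1 only and 66.7% for H3K4me3 only. An H3K27ac region was met by 21.3% of H3K4me1-only windows and by 52.1% of H3K4me3-only windows. Motifs were counted as exact letters on both strands. TGAGTCA, the element bound by AP-1 factors, was in 46 of the 348 H3K4me1-only windows, or 13.2% (95% exact interval 9.84 to 17.2). It was in 2.4% of H3K4me3-only windows, in 5.68% of windows with neither mark and in 4.01% of all windows. Within windows of 40 to 50% GC it was in 12 of 57 H3K4me1-only windows, or 21.1%, and in 7.43% of those with neither mark. Between 50 and 60% GC the shares were 15.4% and 6.80%, and between 60 and 70% they were 11.9% and 4.25%. TGANTCA, which includes TGAGTCA, was in 16.4% of H3K4me1-only windows and 6.15% of all windows. The other motifs searched lay nearer their background. GGAATG, the letters bound by TEAD factors, was in 15.2% against 12.2%, TGTTTAC, a forkhead element, in 3.16% against 2.85%, and TGACNNNGC, the core of the antioxidant response element, in 15.8% against 13.8%. CALHM3 above holds TGAGTCA and SCHIP1 holds TGANTCA.

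Around starts that carried H3K4me3, H3K4me1 formed 2 shoulders with a trough between them. At the start itself 0.166% of these 12081 starts lay in an H3K4me1 region. Coverage rose to 0.919% at 1500 bp upstream and to 2.13% at 1600 bp downstream, where each library's own peaks gave 2.47% and 2.43%. Starts without H3K4me3 showed the opposite shape, with H3K4me1 at 2.45% of 10051 starts at position 0 and 0.836% at 5000 bp upstream. For scale, H3K4me3 covered 49.0% and H3K27ac 18.7% of all starts at position 0, and H3K4me1 1.20%. The starts were split by H3K4me3 in the same cells, and H3K4me1 was not used for the split.

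**Figure D1:**
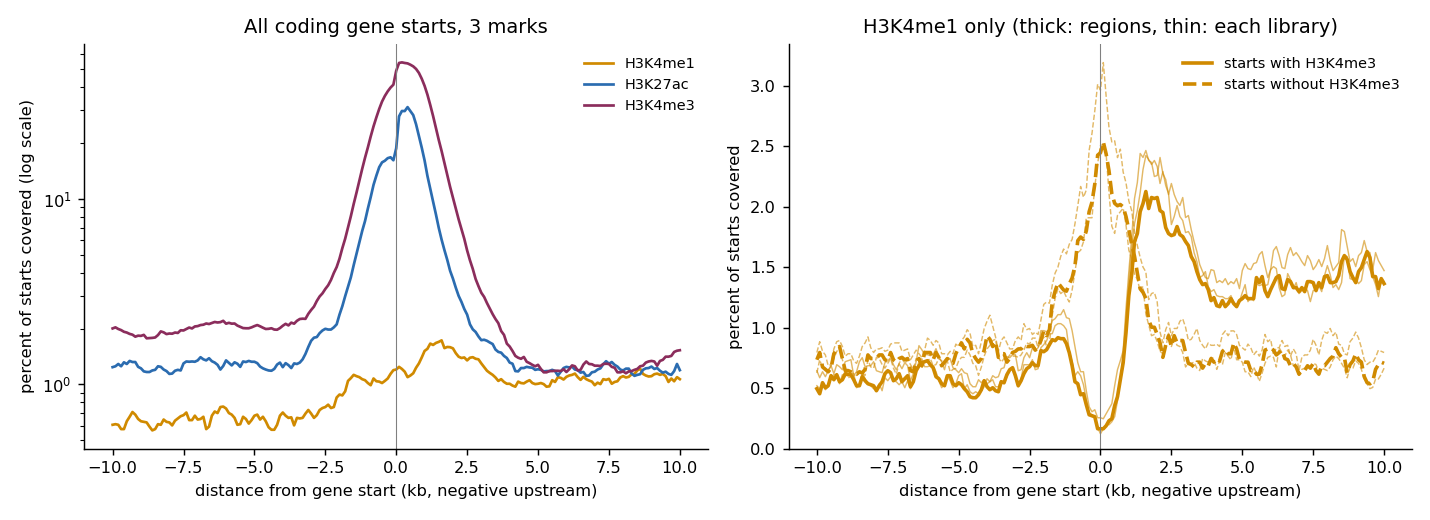
Percent of coding gene starts covered by a region (y axis) at each distance from the start in kb (x axis); left, all 22132 starts and 3 marks on a log scale; right, H3K4me1 at starts with and without H3K4me3, thick lines for regions and thin lines for each library. H3K4me1 at starts with H3K4me3 falls to 0.166% at the start and reaches 2.13% at 1600 bp downstream, while starts without H3K4me3 peak at the start.

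As merged from these lists of mostly weak peaks, H3K4me1 regions were short and scattered. Their width depended on the peaks used. The median was 699 bp with only peaks of −log10 q of at least 1.3, and 625 bp with peaks joined up to 500 bp apart. The median region was 464 bp wide, with quartiles of 339 and 658 bp and a range of 200 to 3996 bp. Only 7.77% of H3K4me1 regions spanned at least 1000 bp, against 17.1% of H3K27ac and 64.1% of H3K4me3 regions. All H3K4me1 regions together covered 13.0 Mb, or 0.428% of the chromosomes' length. Here and below, a chromosome's length was counted up to its last annotated gene or peak, and assembly gaps were not taken out. In single libraries the median peak width was 314 and 308 bp for H3K4me1, 375 and 380 bp for H3K27ac, and 1012 and 1092 bp for H3K4me3. The 2 H3K4me1 values lay below both values of each other mark. The mean difference from H3K27ac was -66.5 bp and that from H3K4me3 -741 bp. With 2 libraries against 2, the smallest p that the two-sided exact permutation test allows is 0.33, and each of the 8 differences between marks tested gave an exact p of 0.33, adjusted 0.33. The order against H3K27ac turned at the strict threshold: among peaks with −log10 q of at least 5, H3K4me1 peaks were wider by 83.3 bp.

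Gaps between neighbouring H3K4me1 regions ran over several orders of magnitude. Their median was 14627 bp, with quartiles of 1433 and 77848 bp. At most 1 kb separated 21.6% of neighbours and over 100 kb separated 21.4%. H3K4me3 regions had a median gap of 45886 bp and H3K27ac regions one of 9685 bp. For H3K27ac, 33.5% of gaps were of at most 1 kb, so that H3K27ac neighbours were the closer packed. In single libraries the median gap was 7558 and 9028 bp for H3K4me1, 3437 and 3794 bp for H3K27ac, and 28600 and 35104 bp for H3K4me3.

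**Figure D2:**
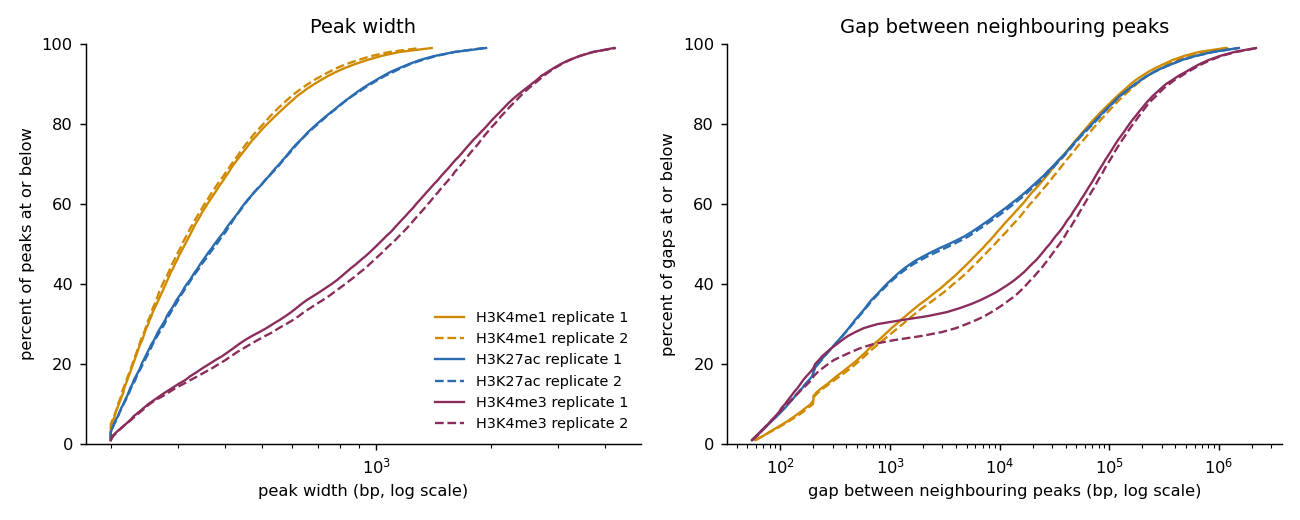
Cumulative percent of peaks by width (left) and of gaps between neighbouring peaks (right), in bp on log axes, one line per library, solid for replicate 1 and dashed for replicate 2. The median H3K4me1 widths of 314 and 308 bp lie left of those of H3K27ac and H3K4me3 and the replicates nearly coincide.

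Coding genes held most H3K4me1 regions in their bodies, and few regions lay at gene ends. Of the 23540 regions, 15451 overlapped the span of a coding gene, or 65.6% (95% exact interval 65.0 to 66.2), where such spans make up 41.6% of the chromosomes' length. A further 5036, or 21.4%, lay outside genes but within 50 kb, where that zone makes up 19.9%. Gene deserts, defined here as positions over 50 kb from every coding gene, make up 38.5% and held 3053 regions, or 13.0%. Within 1000 bp of a gene's start or end lay 1287 regions, or 5.47%, in 2.39% of the length. In single libraries the share of peaks at gene ends at 5.22% ± 0.466 (SD, n = 2) in H3K4me1 was far below the 39.3% ± 0.863 (SD, n = 2) of H3K27ac and the 71.6% ± 0.265 (SD, n = 2) of H3K4me3. The share of peaks in deserts was 13.5% ± 0.437 (SD, n = 2), against 7.36% ± 0.118 (SD, n = 2) and 2.14% ± 0.00473 (SD, n = 2). Inside genes it was 64.9% ± 0.287 (SD, n = 2), against 72.5% ± 0.460 (SD, n = 2) and 79.5% ± 1.75 (SD, n = 2). In all 3 measures the 2 H3K4me1 libraries lay on one side of both libraries of each other mark. Gene spans were used without their exons, so exonic and intronic positions were not separated.

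Most H3K4me1 regions carried no second mark of the series. An H3K27ac region was met by 5108 H3K4me1 regions, or 21.7%, and an H3K4me3 region by 551, or 2.34%. Both marks were met by 257, and neither by 18138, or 77.1%. Each library's own peaks met H3K27ac regions at 17.7% ± 0.374 (SD, n = 2) and neither mark at 81.0% ± 0.464 (SD, n = 2). BRG1 sites lay in 601 H3K4me1 regions, or 2.55%, SMARCC1 sites in 95 and NRF2 sites in 68. Beside the 551 that met H3K4me3, 1304 regions, or 5.54%, lay within 2000 bp of an H3K4me3 region, and 18539, or 78.8%, lay over 10000 bp away.

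Stronger H3K4me1 regions were wider and met H3K27ac more often. The strength of a region was taken as the mean over both libraries of the highest fold in it, and had a median of 3.60 with quartiles of 3.22 and 4.12 and a range of 1.84 to 11.9. Across the 23540 regions the 2 libraries' folds had a Spearman rho of 0.516 and a Pearson r of 0.618, and strength and width a rho of 0.406. Regions are not independent samples, the peak caller sets fold and width from the same reads, and these coefficients are descriptions. In 5 equal groups of regions ordered from weakest to strongest, the share that met H3K27ac was 15.9%, 15.4%, 18.4%, 23% and 35.9%. BRG1 was met by 1.87% of the weakest group (95% exact interval 1.5 to 2.30) and by 4.63% of the strongest (4.05 to 5.27). H3K4me3 ran the other way, from 2.89% (2.43 to 3.41) to 1.66% (1.31 to 2.06). Median width was 378 bp in the weakest group and 686 bp in the strongest, and wider regions have more room to meet another mark. Split by width instead, the share that met H3K27ac was 14.1% in the narrowest of 5 groups and 34.9% in the widest.

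The strongest single region lay inside VOPP1 on chromosome 7. This region, chr7:55554258-55556502, reached a fold of 11.2 in replicate 1 and 12.49 in replicate 2. A second region of VOPP1 was also among the 10 strongest, with 9.89 and 8.63. The region in EPDR1, an ependymin-related gene, followed with folds of 10.8 and 10.7. The region in AKT2, a kinase gene of insulin and growth factor signalling, had 11 and 9.56. OSBPL5, an oxysterol-binding protein gene, had 9.57 and 9.48, and ZNF516 had 9.73 and 9.11. Folds of 9.71 and 8.99 were found in MBP, the myelin basic protein gene, and folds of 9.20 and 8.74 in WWC1, which encodes the Hippo pathway protein KIBRA. The 2 others lay in deserts, 52185 bp from ABHD2 and 82644 bp from INSIG1. None of the 10 strongest regions met H3K4me3, and 6 met H3K27ac. Over all regions the shares were 2.34% and 21.7%, and in the strongest of the 5 groups 1.66% and 35.9%. With so low a share for H3K4me3, its absence from 10 regions says little.

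The 10 widest regions were 3248 to 3996 bp long. The widest, of 3996 bp, lay in ACTN4, the actin cross-linking alpha-actinin-4 gene, with folds of only 4.41 and 3.90. Those in FOXS1, BIN1 and DCPS followed with 3924, 3888 and 3841 bp. In BIN1, a membrane-curvature gene, the libraries disagreed on strength, with folds of 6.92 and 2.78. The other genes at or near the widest regions included ASAP2, SDC1, KIRREL1, POU3F1 and TNIP1.

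H3K4me1 density differed between chromosomes, and the gene-richest one, chromosome 19, was not among the highest. Chromosome 11 held 13.5 regions per Mb, chromosome 20 11.3, chromosome 10 11 and chromosome 1 10.6. The lowest values were 2.18 on chromosome 21, 2.49 on chromosome 13, 2.66 on chromosome 22 and 3.18 on chromosome 4. Assembly gaps are part of the lengths used, so the order of these low values may depend on them. Chromosome 19 had 24.8 coding genes per Mb and held 4.40 H3K4me1 regions per Mb, but 17.2 H3K27ac and 18.7 H3K4me3 regions per Mb. Over the 23 chromosomes the rho between regions and coding genes per Mb was 0.358 for H3K4me1 (r 0.0600), 0.887 for H3K27ac (r 0.854) and 0.968 for H3K4me3 (r 0.988). Peaks per Mb of the 2 H3K4me1 libraries had a rho of 0.970 over the same chromosomes. These are descriptions over chromosomes of the same libraries. On chromosome 19, 39.5% of H3K4me1 regions met H3K27ac, and on chromosome X 13.3%.

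**Figure D3:**
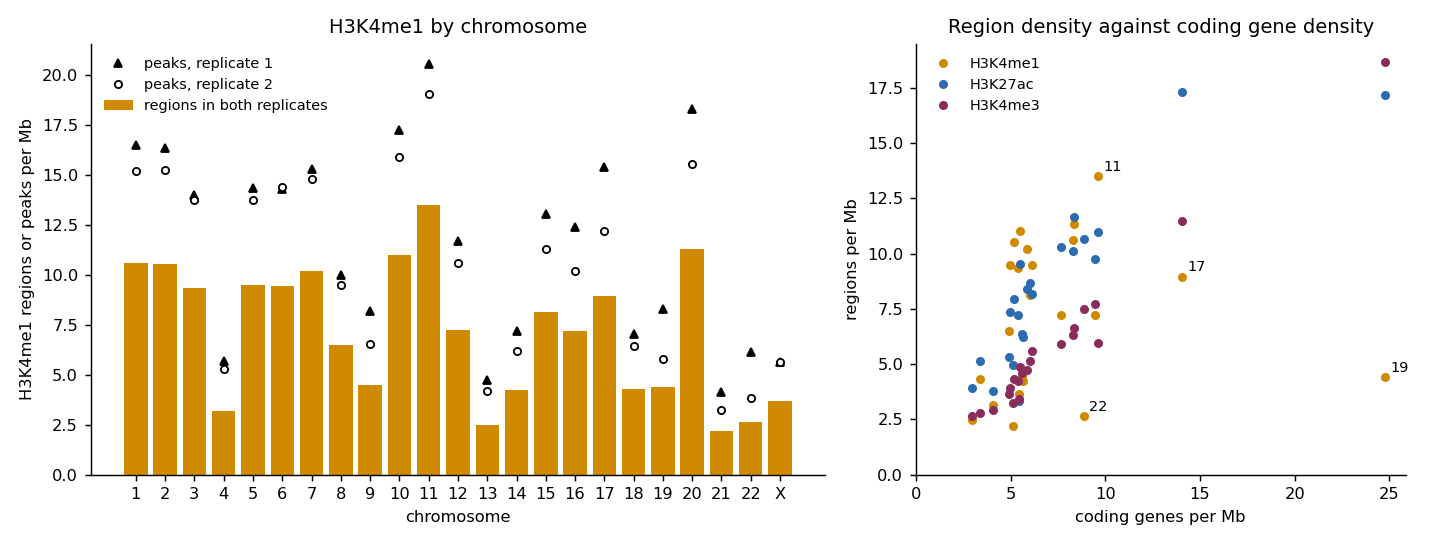
Left, H3K4me1 regions per Mb (bars) and peaks per Mb of each library (triangles and circles) for each chromosome; right, regions per Mb against coding genes per Mb, one point per chromosome and mark, with 4 chromosomes labelled at their H3K4me1 point. Chromosome 11 is highest at 13.5 H3K4me1 regions per Mb, and chromosome 19 has 4.40 despite 24.8 coding genes per Mb.

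Within chromosomes, a small part of the genome held much of the mark. Of 3043 bins of 1 Mb, 837 held no H3K4me1 region, among them 501 with a coding gene and 184 with an H3K27ac region. The 343 bins with at least 20 regions, 11.3% of all bins, held 44.3% of the regions. The fullest bin, on chromosome 7 from 47000001 to 48000000, held 71 regions and contains TNS3. Bins with 69 regions each lay on chromosome 10 at ZMIZ1, from 79000001, and at ABLIM1, from 114000001. The bin from 150000001 on chromosome 5, with CSF1R, PDGFRB and SYNPO, held 64, and that from 20000001 on chromosome 2, with SDC1, RHOB and HS1BP3, held 63. On chromosome 8 the bin with MYC held 61, on chromosome 7 that with PRKAG2 held 60, and on chromosome 5 that with SH3PXD2B and DUSP1 held 58. The bin of ASAP2 on chromosome 2 and that of EGFR and VOPP1 on chromosome 7 held 57 each.

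Per gene, H3K4me1 regions were few or not found at most genes and many at a small number. Of the 19974 coding genes, 10509 had at least 1 H3K4me1 region within 50 kb, which is 52.6%. At least 5 regions were found at 2532 genes, which is 12.7%, and at least 20 at 110 genes. The median was 1 region and the mean 1.9. Without the 50 kb margin, 4947 genes, or 24.8%, had a region in their span. An H3K27ac region but no H3K4me1 region was near 5426 genes, and H3K4me1 without H3K27ac was near 1624. For scale, 14311 coding genes, or 71.6%, had an H3K27ac region in the same window, and 9465 had no H3K4me1 region. The counts of genes with only 1 of these marks therefore do not show that the marks avoid each other. Longer genes had more regions: with genes in 5 equal groups by span, 39.5% of the shortest and 69.1% of the longest group had at least 1, and the mean was 1.04 against 3.59. Per 100 kb of window the shortest group had a mean of 1.0 and the longest 1.25. Counts of peaks per gene in the 2 libraries had a rho of 0.886 and an r of 0.947 over the 19974 genes.

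The genes at the top of the count were mostly long. Several are known for roles in the cytoskeleton, cell adhesion or growth factor signalling, and others are not. These roles are what single genes are known for, and no test was made on them. TNS3, which encodes tensin-3, a protein of focal adhesions, had 55 regions, from 71 peaks in replicate 1 and 69 in replicate 2. ZMIZ1, a transcriptional coactivator gene, also had 55, from 85 and 69 peaks. ABLIM1, an actin-binding LIM protein gene, had 50, from 64 and 66 peaks. Next came CMIP with 44, the potassium channel gene KCNMA1 with 43 and LPP, a focal adhesion LIM protein gene, with 41. ARHGAP26, a RhoA-directed GTPase activator gene, had 40, and PDE10A, a phosphodiesterase gene, and EXT1, a heparan sulfate polymerase gene, had 39 each. PRKAG2, a regulatory subunit gene of AMP kinase, had 38. DDAH1, PTPN14, SPRED2 and EGFR had 37 each. PTPN14 encodes a phosphatase that restrains YAP, SPRED2 an inhibitor of RAS to ERK signalling, and EGFR the epidermal growth factor receptor. CRIM1, MAML2 and IGF1R, the gene of the insulin-like growth factor 1 receptor, had 36 each, and HS1BP3, NAV2 and the RAS scaffold gene KSR1 had 35 each. Toward the end of the list of 25 stood HPCAL1 at 34, SH3PXD2A, which encodes the invadopodium protein TKS5, at 33, and ASAP2 and IQCJ-SCHIP1 at 32. The median span of these 25 genes was 267 kb, against 24.2 kb for all coding genes. Of the 25 genes with the most peaks in replicate 1 and in replicate 2, 21 were shared.

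These leading genes differed in how much H3K27ac accompanied the mark. KCNMA1 had 52 H3K27ac regions in the same window as its 43 H3K4me1 regions, and TNS3 and HPCAL1 had 44 each. LPP had 6 H3K27ac regions beside 41 H3K4me1 regions, NAV2 and KSR1 had 8 each beside 35, and IQCJ-SCHIP1 had 2 beside 32. With only peaks of −log10 q of at least 1.3, 3531 genes, or 17.7%, kept a region. The 25 leading genes kept 5 to 18 regions each. They were picked for high counts that include these same peaks, so that each kept some does not test the ranking. Of the 25, 13 were among the 25 genes with the most such regions. There ABLIM1 led with 18, and TNS3 and ZMIZ1 followed with 16 each, while CMIP had 6 and PTPN14 5.

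**Figure D4:**
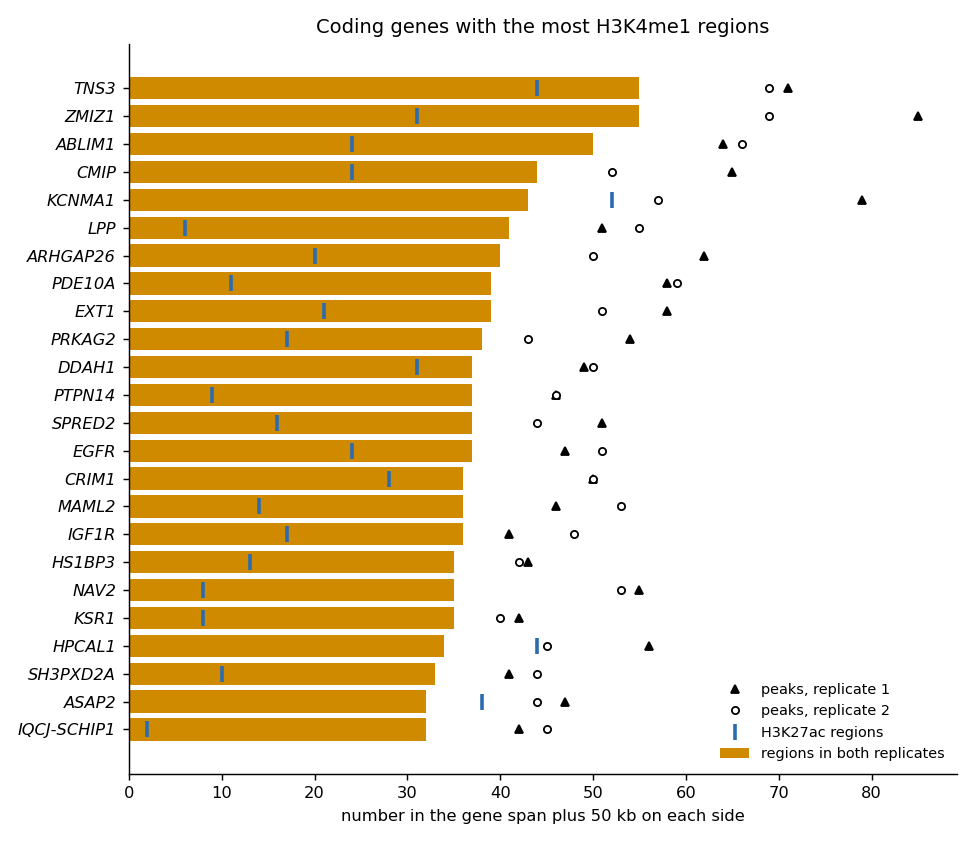
Number of H3K4me1 regions (bars), H3K4me1 peaks in each library (triangles and circles) and H3K27ac regions (vertical ticks) in the span plus 50 kb of 24 of the 25 coding genes with the most H3K4me1 regions. TNS3 and ZMIZ1 lead with 55 regions, and the H3K27ac ticks range from 2 at IQCJ-SCHIP1 to 52 at KCNMA1.

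Ranking by regions per 100 kb of window, among genes with at least 5 regions, brought forward shorter genes. AMOTL2, whose product angiomotin-like 2 binds YAP, led with 19.2 per 100 kb from 23 regions, against a mean of 1.15 over all coding genes. PANK4 had 17.8, HS1BP3 17.7, and SPARC, a secreted matrix glycoprotein gene, 16.7. SPRED2 had 16.4, MYOZ3 16.0, ZMIZ1 15.8, LOC107986982 15.5, the kinase gene NUAK1 15.4 and IER5, an immediate early response gene, 15.4. At AMOTL2, PANK4, MYOZ3, LOC107986982 and IER5 most of these regions lay outside the gene, with 7, 3, 1, 6 and 0 in the span. SPARC had 30 and 26 peaks in the 2 libraries, 11 of its 21 regions lay in the gene, and 4 H3K27ac regions shared its window.

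Chaining neighbouring regions at a stitching distance between 12 and 13 kb, as is customary for super-enhancers, gave 12234 groups, of which 7461 were single regions. Groups of at least 5 regions numbered 777 and held 25.8% of all regions, and 144 groups had at least 10. The largest group lay on chromosome 8 in PVT1, a long non-coding RNA gene beside MYC, the growth-promoting transcription factor gene. It held 52 regions in 132 kb, from 69 and 63 peaks, with 43 H3K27ac regions and 2 BRG1 sites in the same stretch. Its near edge lay 56870 bp from MYC, whose window of 50 kb on each side held 0 regions, whereas windows of 100 kb held 17 and of 200 kb 53. The second group, of 47 regions in 182 kb, lay at TNS3, and the third, of 34 regions in 80.5 kb, at SPRED2. Groups at HS1BP3, ARHGAP26 and TRIO, a guanine exchange factor gene, had 28 regions each. MBP had 27, and EGFR, ZMIZ1 and NUAK1 had 26 each. Of the 58.3 kb of the ZMIZ1 group, 38.6% was covered by H3K4me1. At TRIO 39 H3K27ac regions lay in the group, more than its 28 H3K4me1 regions, and at NUAK1 there were 9 beside 26.

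Gene lists were read against the background of 52.6% of coding genes with a region and 12.7% with at least 5. No test was made on them, and neighbouring members share regions. Markers of simple epithelium and of the pancreatic duct, the cell type PANC1 is taken to come from, had a region at 14 of 18 genes, and 6 had at least 5. LAMB3, a laminin chain gene, had 12, KRT7, a ductal keratin gene, 10 and ITGA2, an integrin gene, 9. LAMB3 and ITGA2 are also members of the integrin and laminin list below. CLDN4 had 2, and EPCAM, CFTR, CDH1 and SOX9 had 1 each. Those with 0 included MUC1, SPP1 and CLDN7. With the gene span alone, 6 of the 18 had a region. Acinar genes, which encode digestive enzymes and their regulators, had a region at 11 of 18 and at least 5 at 6. However, CTRC and CELA2A shared the same 9 regions, the 5 of PRSS1 were all among the 8 of PRSS2, and none of the regions of these 4 genes or of CTRB1 lay in that gene's own span. Among acinar transcription factor genes, RBPJL had 5, NR5A2 4, BHLHA15 2 and PTF1A 0. At −log10 q of at least 1.3, 5 of the 18 epithelial and ductal genes kept a region and 6 of the 18 acinar genes did. The share over all coding genes was then 17.7%.

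Lists of endocrine, stromal, blood, liver and neuronal markers had shares near or below the background. Islet endocrine genes had a region at 8 of 18, none with 5, and INS, the insulin gene, led with 4. Fibroblast and stromal genes had one at 7 of 13, blood cell genes at 8 of 14, hepatocyte genes at 6 of 14 and neuronal genes at 9 of 16. Of the blood cell genes 6 had 0, among them PTPRC, which encodes the leukocyte antigen CD45, while the T cell gene CD3E had 3. Of the hepatocyte genes 8 had 0, among them ALB, the albumin gene, while SERPINA1 had 3. The highest values in 3 of these lists came from 1 stretch of chromosome 5, the bin from 150000001. There CSF1R had 12 regions, PDGFRB 9, all shared with CSF1R, and CAMK2A 9. The ribosomal protein gene RPS14 in the same bin had 11.

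Adhesion and matrix genes were the list with the largest share. Of 21 integrin and laminin genes, 19 had a region and 12 had at least 5, with a median of 5 against 1 for all coding genes. LAMC1 had 17, LAMB3 12, the integrin genes ITGB5 11 and ITGB6 9, and LAMB2 and LAMA1 had 0. Their median span of 79.4 kb exceeded the 24.2 kb of all coding genes. Per 100 kb of window the list's median was 2.53, against 0.453. Genes of the YAP and TEAD pathway, the transcriptional output of Hippo signalling, had a region at 14 of 19 and at least 5 at 10, with a median of 5 regions and of 3.51 per 100 kb. CRIM1 had 36, AMOTL2 23, WWTR1, which encodes the coactivator TAZ, 21, AMOTL1 18 and NUAK2 16. The members with 0 were LATS1, LATS2, AJUBA, AXL and TEAD2. At −log10 q of at least 1.3, 12 of the 21 adhesion genes and 10 of the 19 YAP and TEAD genes kept a region, against 17.7% of all coding genes.

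Among signalling and state genes, the TGF-beta pathway had a region at 17 of 21 genes. The ligand-binding protein gene LTBP1 had 18, the ligand gene TGFB2 16, the inhibitory SMAD gene SMAD6 10, and SKI and SMAD7 9 each, while the ligand genes TGFB1 and TGFB3, BMP2 and the central mediator gene SMAD4 had 0. Mesenchymal state genes had one at 15 of 22, with SPARC at 21, the hyaluronan receptor gene CD44 at 10, TGFBI and SNAI1 at 8 and TWIST2 at 5. The 7 members with 0 were VIM, ZEB1, SNAI2, TWIST1, LOXL2, MMP14 and AXL. CD44 also had 29 H3K27ac regions in its window. The AP-1 family had one at 10 of 15. Its largest values were 9 at FOSL2 and 6 at JUN, and FOSL1, FOS, BATF, JUNB and JUND had 0. In the EGF receptor family and its ligands, 8 of 12 had a region: EGFR had 37, ERBB4 and HBEGF 5, and TGFA and ERBB2 4, while EREG, BTC, NRG1 and ERBB3 had 0. Pancreatic cancer drivers had one at 6 of 14, with at most 3, at TGFBR2, MAP2K4 and GNAS.

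Chromatin regulators had H3K4me1 at shares somewhat above the 52.6% of all coding genes, and ribosomal protein genes at a lower share. Their spans differed as well. Median spans were 51.0 kb for BAF and PBAF subunit genes, 59.7 kb for H3K4 methylation enzymes and 5.09 kb for ribosomal protein genes. Among all coding genes, 57.0% of those spanning 35.35 to 83.6 kb had an H3K4me1 region, and 39.5% of those spanning up to 6.49 kb. For H3K27ac, 14311 of the 19974 coding genes, or 71.6%, had a region in the same window. All 27 BAF and PBAF subunit genes had an H3K27ac region. At least 5 H3K4me1 regions were found at 3 of the 27, or 11.1%, against 12.7% of all coding genes. An H3K4me1 region was found at 16, led by ARID1B with 14. Enzymes that write or erase H3K4 methylation, listed with acetyltransferases such as CREBBP, had one at 13 of 21 and none had 5. DPY30, KMT2A and CREBBP had 4 each. NRF2 target genes, which serve antioxidant defence, had one at 11 of 25, or 44%, below the 52.6% of all coding genes. Their median was 0 regions. ABCC3 had 13 and NFE2L2, the gene of NRF2 itself, 11, while 14 members had 0, among them NQO1, HMOX1 and GCLM. Of 80 cytosolic ribosomal protein genes, 79 had an H3K27ac region and 34, or 42.5%, an H3K4me1 region. HOX genes had an H3K4me1 region at 28 of 39 and none had 5.

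Large tandem families were the lowest. Olfactory receptor genes, which act mainly in the olfactory epithelium, had a region near 52 of 390, or 13.3%, and in the gene span of 1. Genes with a ZNF symbol, many of them in clusters on chromosome 19, had one near 116 of 477, or 24.3%. An H3K27ac region was near 376 of them, where 71.6% of all coding genes had one. Within that list ZNF407 had 25 and ZNF362 13. Clustered protocadherin genes, which give neurons their surface identity, had one at 22 of 53 and none had 5.

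**Figure D5:**
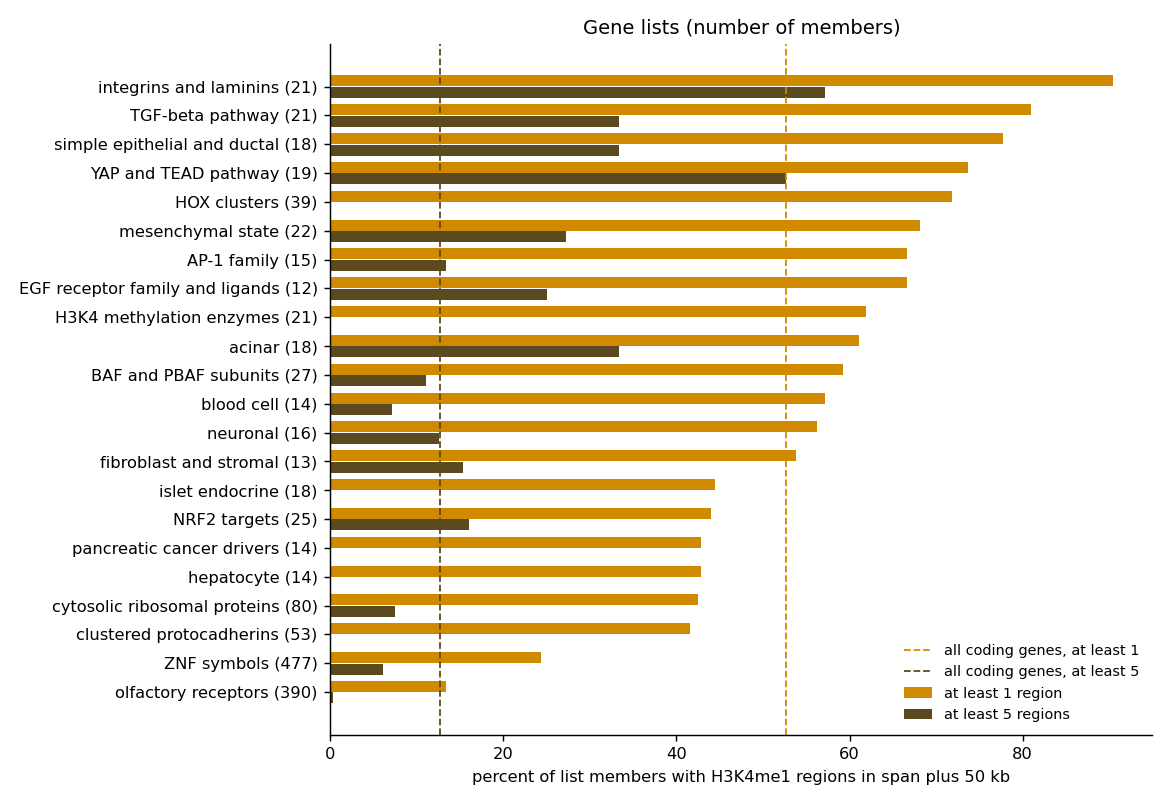
Percent of the members of 22 gene lists with at least 1 (light bars) and at least 5 (dark bars) H3K4me1 regions in span plus 50 kb, list sizes in brackets, dashed lines for all coding genes at 52.6% and 12.7%. Integrins and laminins (19 of 21) are at the top and olfactory receptors (52 of 390) at the bottom.

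The 3053 H3K4me1 regions in gene deserts had a median distance of 108501 bp to the nearest coding gene, and 156 lay over 500 kb away. They were slightly narrower than regions inside genes, with median widths of 429 and 474 bp, and of similar strength, with median folds of 3.54 and 3.62. H3K27ac was met by 18.8% of desert regions (95% exact interval 17.5 to 20.3) and by 22.3% of those inside genes (21.7 to 23). BRG1 was met by 4.91% (4.17 to 5.74) and 2.07% (1.85 to 2.31). H3K4me3 was met by 8 desert regions, or 0.262%, against 3.09% inside genes. A long non-coding RNA gene was overlapped by 1100 desert regions, or 36.0%, and by 7.84% of those inside coding genes. Chromosome 8 had the largest share of its regions in deserts, 28.8%, followed by chromosome 13 with 23.5%, and chromosome 19 the smallest, 0.775%.

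The strongest desert regions were 2 of the 10 strongest of all, below the leading regions inside genes. That near ABHD2, chr15:88986987-88988812, had folds of 10.9 and 8.77 and met H3K27ac. That near INSIG1, a sterol-sensing gene, had 10.7 and 8.06 and met none of the other 5 targets. Regions 83448 bp from METTL9 and 163475 bp from the Notch target gene HEY2 followed with mean folds of 8.92 and 8.73, and both met H3K27ac. One 79323 bp from RASGRF1 met H3K27ac, BRG1 and NRF2 together. The farthest region from any coding gene lay 2249033 bp away on chromosome 20 and met H3K27ac, with folds of 4.24 and 3.55. The next lay 1835029 bp from SLITRK5 on chromosome 13, with folds of 3.69 and 3.92. Other remote regions lay over 1 Mb from SUCLG1, PLA2G4A and TENM4, and 2 of those near PLA2G4A met BRG1.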

How the data were processed

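Peak lists in narrowPeak format from 12 CUT&RUN libraries, 2 for each of 6 targets, were used, and the IgG library was not. Libraries were grouped by the target and replicate number in their titles. The submitters' processing notes give the build as GRCh38 and name MACS2 2.2.7.1, Bowtie2 2.4.1, Picard 2.23.9 and SAMtools 1.9. Each tool's role and settings, and whether IgG served as the control for peak calling, are not given in the sources used here. In the deposited files, column 7 is taken as the authors' fold enrichment, a ratio, columns 8 and 9 as the authors' −log10 p and −log10 q, and column 5 as a deposited score, which was not used. Each fold belongs to its own peak and was used to rank and describe peaks. The lowest −log10 p was 2.01, so weak peaks were deposited too.

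Peaks of both replicates were merged at 1 bp or more of overlap, and regions with a peak from each were kept. Gene spans came from RefSeq GRCh38.p14, with 50 kb added on each side. Libraries of different marks were compared with a two-sided exact permutation test and Benjamini-Hochberg adjustment over 8 differences. The p-values measure only the spread between these libraries, which may be technical. Shares have exact Clopper-Pearson 95% intervals. Named items were the 25 genes with the most regions, the 10 leading items of every other ranking, up to 5 leading members of each list and all members with 0 where these were 5 or fewer, of which some are not reported here; others were named as defining markers, for shared windows or for their H3K27ac counts after their values were seen. The members, lists and tests were chosen with earlier results of these data known. Interval code was tested on simulated data, with 0 errors in 5318 checks. Alternatives were thresholds on −log10 q, peaks of either replicate, other overlaps and windows, equal peak numbers, a replicate block, and leaving out each library. Python 3.11.15, NumPy 2.4.6, pandas 2.3.3, SciPy 1.17.1 and matplotlib 3.10.9 were used.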

Additional observations from a re-analysis of the deposited data

How the results depend on the processing

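With −log10 q of at least 5, 54 regions near 83 genes were left, with a median width of 1114.5 bp, a median gap of 1520478 bp and a median of 0 regions per gene. Of these, 72.2% lay inside genes, 13.0% at gene ends and 11.1% in deserts, and 18.5% met H3K27ac and 1.85% H3K4me3. The width difference from H3K27ac was -4.5 bp with −log10 q of at least 1.3 and turned to 83.3 bp with at least 5. The cause was not tested. In 63 of 64 settings a difference between marks kept its sign. In most of these settings the sign could not turn. Libraries of different marks did not overlap in any difference, so leaving out 1 library could not reverse it. The replicate block gives the same mean difference by construction. Only the thresholds on −log10 q and equal peak numbers could have changed a sign. At 1.3, chosen after seeing the data, 3939 regions near 3531 genes were left, with width 699 bp, gap 99232 bp, a median of 0 per gene, 67.9% inside genes, 11.8% in deserts, 22.9% meeting H3K27ac and 1.45% H3K4me3. The best 17752 peaks per library gave width 563 bp, gap 38098.5 bp, 6876 genes, a median of 0, 67.2% inside genes, 12% in deserts, 15.7% with H3K27ac and 1.79% with H3K4me3. Peaks of either replicate gave 45429 regions, width 326 bp, gap 6438.5 bp, a median of 2 per gene, 64.3% inside genes, 14.0% in deserts, 23.7% with H3K27ac and 2.96% with H3K4me3. Joining peaks up to 500 bp apart gave width 625 bp and gap 25321 bp.

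Leaving out an H3K4me1 library, so that the peaks of 1 library stood for the regions, gave 34234 to 37283 regions, widths of 308 to 314 bp, gaps of 7558 to 9028 bp, and 12067 to 12669 genes. It gave 64.7% to 65.1% inside genes, 4.89% to 5.55% at gene ends, 13.2% to 13.8% in deserts and 17.5% to 18.0% meeting H3K27ac. Gene ends of 2500 bp held 11.4% of regions, and 3.18% lay over 200 kb from coding genes. The gene span alone gave 4947 genes and a median of 0, and 20 kb a median of 0. A replicate block left the differences at -66.5 bp in width, -7.66 points inside genes, -34.1 at gene ends and 6.15 in deserts against H3K27ac, with an exact sign-flip p of 0.5, the smallest that 2 pairs allow. The labels do not say whether same-numbered libraries of different marks belong together. Deviations of same-numbered H3K4me1 and H3K27ac libraries had a correlation of 0.00132 over genes, and of H3K4me1 and H3K4me3 libraries -0.00868. With a single contrast between replicates per mark, these values cannot decide whether the libraries were paired. Depth is unknown, the peak lists alone limit what could be detected, and a gene without a region is one without a reproducible peak.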

Other observations

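Some long non-coding RNA genes, which the coding gene rankings do not list, also held H3K4me1 regions. Of 18177 such genes in RefSeq, 1977, or 10.9%, overlapped an H3K4me1 region in their span, against 24.8% of coding genes. Genes that overlap coding genes are included. PVT1, the MYC-neighbouring gene, had 62 regions in its span, from 88 peaks in replicate 1 and 78 in replicate 2, with 51 H3K27ac regions. No coding gene had more than 55 H3K4me1 regions, even with 50 kb added on each side. LINC00673 on chromosome 17 had 29 regions, from 55 and 41 peaks, with 31 H3K27ac regions. MIR3681HG had 15, from 20 and 17 peaks, with 1 H3K27ac region, and CARINH had 15, from 18 and 19 peaks, with 15. LINC00607 had 11 regions and 0 H3K27ac regions. LALTOP, with 16 regions, overlaps a coding gene, so its regions are counted there too. Of 1911 miRNA hairpins, 24, or 1.26%, overlapped an H3K4me1 region.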
